A study of Mus musculus with 16 samples.

Results

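The adult globin genes of the mouse were followed in an erythroid cell line in which the transcription factor GATA1 was moved into the nucleus by graded amounts of beta-estradiol. They were taken as the rows of the deposited gene table named Hba-a2, Beta-s, Hbb-b1 and Hbq1b, which are 4 of 23410 gene symbols, and all 4 had enough counts to be tested. The cells were G1E-ER4, a line without its own GATA1 protein that carries GATA1 fused to the hormone-binding part of the estrogen receptor. The cells with 12.5, 25, 50, 75, 100, 150 or 200 nM beta-estradiol and the untreated cells at 0 nM all carried the fusion and all grew with serum, stem cell factor and erythropoietin. Each of the 8 doses had 2 libraries, prepared by Smart-seq2, and no source used here gives the duration of treatment. Every library comes from this 1 line, none comes from cells lacking the fusion, and the labels do not say whether replicates came from separate cultures. The p-values below therefore measure the spread between these libraries, which may be technical.

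Adult haemoglobin is made of alpha chains, encoded on mouse chromosome 11, and beta chains, encoded on chromosome 7. Each gene cluster is switched on during red cell maturation by distant enhancers, named the locus control region at the beta cluster, where GATA1 binds together with other erythroid factors. Unpaired chains damage the cell, and so alpha and beta output is kept near balance in maturing red cells. Hba-a2 encodes the adult alpha chain, Beta-s and Hbb-b1 are adult beta-chain entries, and Hbq1b encodes a theta globin, an alpha-like gene whose role in haemoglobin is not settled.

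Hba-a2 lies on chromosome 11 from 32296489 to 32297298 on the plus strand, and Hbq1b lies upstream of it from 32286965 to 32287784, both with 3 exons (GRCm38, GENCODE M21). Beta-s is an older name of Hbb-bs, which lies on chromosome 7 from 103826534 to 103828096 on the minus strand. The symbol Hbb-b1 matched no gene of the GENCODE annotation, in which the adult beta genes of chromosome 7 are Hbb-bs and Hbb-bt, so this entry is reported by its name alone, without a place or a length. Copies limit single members. Of the windows of 50 bases in the Hba-a2 transcript 86.9% also occur in Hba-a1, and of those in Hbb-bs 65.8% also occur in Hbb-bt. For Hbq1b the share in its copy Hbq1a was 39.8%. No source used here says how reads matching both copies were counted. The deposited gene table has no row named Hba-a1 or Hbb-bt, while Hbq1a is listed.

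Hba-a2, Beta-s and Hbq1b rose together, while Hbq1a gave almost no counts. As a description, the 250 bases before the RefSeq start of transcription are shown for these genes below. They come from RefSeq (GRCm38.p6), where 3 of the 4 members had an entry. For Hbb-bs the RefSeq start, at 103827928, lies 168 bases inside the GENCODE gene given above, so that much of its window is within that longer gene model, while for Hba-a2, Hbq1b and Hbq1a the starts differ by at most 3 bases. Capitals mark matches on either strand to GATAA, the core of the GATA site, to CACCC, the core bound by Kruppel-like factors, to CCAAT, and to TATAA, the TATA box. No matches overlapped.
Hba-a2 (chr11:32296242-32296491, plus strand): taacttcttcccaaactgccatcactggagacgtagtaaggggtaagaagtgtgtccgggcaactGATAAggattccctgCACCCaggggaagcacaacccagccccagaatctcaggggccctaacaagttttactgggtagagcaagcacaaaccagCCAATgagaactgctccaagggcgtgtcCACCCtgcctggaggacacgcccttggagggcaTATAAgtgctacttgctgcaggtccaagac
Beta-s, as Hbb-bs (chr7:103827929-103828178, minus strand): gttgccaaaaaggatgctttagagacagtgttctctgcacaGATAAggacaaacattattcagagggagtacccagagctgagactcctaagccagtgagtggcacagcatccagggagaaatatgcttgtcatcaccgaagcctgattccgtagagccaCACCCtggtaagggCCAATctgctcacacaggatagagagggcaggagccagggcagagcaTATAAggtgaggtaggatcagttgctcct
Hbq1b (chr11:32286714-32286963, plus strand): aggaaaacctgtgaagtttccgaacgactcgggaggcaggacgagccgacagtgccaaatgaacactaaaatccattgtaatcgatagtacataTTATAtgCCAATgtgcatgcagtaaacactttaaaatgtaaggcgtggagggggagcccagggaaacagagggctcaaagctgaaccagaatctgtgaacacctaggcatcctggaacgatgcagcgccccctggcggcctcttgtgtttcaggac
Hbq1a (chr11:32299819-32300068, plus strand): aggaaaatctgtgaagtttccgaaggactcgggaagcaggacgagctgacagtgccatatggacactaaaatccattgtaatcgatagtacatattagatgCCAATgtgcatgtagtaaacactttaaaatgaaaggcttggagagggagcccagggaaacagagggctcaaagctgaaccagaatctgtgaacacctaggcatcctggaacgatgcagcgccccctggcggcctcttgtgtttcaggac

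The alpha and beta promoters each held all 4 motifs. The GATA core stood at -185 to -181 from the start in Hba-a2 and at -209 to -205 in Hbb-bs. The CCAAT box stood at -91 to -87 in Hba-a2 and at -76 to -72 in Hbb-bs, and the TATA box at -30 to -26 in Hba-a2 and at -29 to -25 in Hbb-bs. A CACCC box stood at -63 to -59 and a further one at -170 to -166 in Hba-a2, and 1 stood at -90 to -86 in Hbb-bs. Within the 250 bases the Hbq1b promoter held CCAAT at -149 to -145 and TATAA on the minus strand at -156 to -152, and the Hbq1a promoter held CCAAT alone. These short motifs are common. Of 32851 mouse promoter windows of the same length 22.6% held GATAA, 52.0% held CACCC, 33.8% held CCAAT and 22.8% held TATAA on either strand. Neither theta window held GATAA or CACCC. At 200 nM against 0 nM Hbq1b was 46.4-fold higher, beside 37.2-fold for Hba-a2 and 51.4-fold for Beta-s. A link between motifs and these changes was not tested. The promoters of Hbq1b and Hbq1a were identical at 239 of 250 bases. For Hba-a2 and Hba-a1 the comparison also took in bases past the start of transcription. All 297 bases compared were identical after an offset of 3 bases, so these identities are not the same measure.

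Library totals ran from 9393156 to 15802510 counts. All 12 erythroid markers examined were detected at every dose, and their summed level was 23200 to 23740 CPM at 200 nM against 2993 to 3076 CPM at 0 nM. Megakaryocyte markers summed to 629 to 647 CPM at 200 nM against 18.1 to 18.9 CPM at 0 nM, with all 7 detected at 200 nM. Most of that sum was Itgb3, at 404 ± 11 CPM, and Tubb1, at 191 ± 3 CPM (SD, n = 2). Of 6 tested, 5 were called higher at 200 nM, beside 40.5% of all genes. Gp1ba hardly differed, with 8.05 ± 0.60 against 7.71 ± 0.33 CPM. Myeloid, mast cell, lymphoid, and fibroblast and endothelial markers each summed to at most 2.58 CPM at these doses, and at 200 nM 3 of 6 myeloid, 4 of 6 mast cell, 3 of 4 lymphoid and 5 of 6 fibroblast and endothelial markers were at 0 in both libraries. The ribosomal RNA precursor Rn45s took 14.6% to 15.3% of counts at 200 nM against 9.53% to 9.61% at 0 nM. With Rn45s taken out before scaling, the log2 fold changes at 200 nM against 0 nM were 5.20 for Hba-a2, 5.67 for Beta-s, 6.51 for Hbb-b1 and 5.52 for Hbq1b, each within 0.02 of the values below, and no call of an entry changed at any dose. The part of the megakaryocyte markers in the globin results was not tested. CPM are counts relative to library size, scaled by TMM, which sets libraries to a common level of the typical gene. Gata1 itself, whose reads include those of the fusion, had 1643 ± 46 CPM at 200 nM against 711 ± 62 CPM at 0 nM (SD, n = 2 each).

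Hba-a2, the alpha globin, was already expressed without hormone and rose at every dose from 25 nM. It had 277 and 281 CPM at 0 nM, 282 and 282 CPM at 12.5 nM, 345 and 353 CPM at 25 nM, and 1209.7 and 1313 CPM at 50 nM. It went on to 2622 and 2674 CPM at 75 nM, 4485 and 4430.1 CPM at 100 nM, 7428 and 7288 CPM at 150 nM, and 10545 and 10242 CPM at 200 nM. The libraries of 0 and 12.5 nM lay side by side. At 200 nM Hba-a2 averaged 10393 ± 214 CPM, against 279 ± 2.6 CPM at 0 nM (SD, n = 2 each), a 37.2-fold difference and a log2 fold change of 5.22 ± 0.03 (standard error). Its Benjamini-Hochberg adjusted p was 2.89e-60 by the quasi-likelihood test of edgeR. In these bulk samples more cells with globin transcripts and more transcripts per cell cannot be told apart.

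Beta-s was the most abundant globin entry at every dose. It had 1081 and 1074 CPM at 0 nM, 1215 and 1290.0 CPM at 12.5 nM, 1700.3 and 1830.0 CPM at 25 nM, and 7102 and 6194 CPM at 50 nM. Its levels were 13695 and 13616 CPM at 75 nM, 23848 and 23788 CPM at 100 nM, 39871 and 41234 CPM at 150 nM, and 55518 and 55232 CPM at 200 nM. The widest gap between replicates relative to the level was at 50 nM, where replicate 1 was the higher. At 200 nM Beta-s averaged 55375 ± 202 CPM, against 1078 ± 5.5 CPM at 0 nM (SD, n = 2 each), a 51.4-fold difference and a log2 fold change of 5.68 ± 0.07 (standard error; adjusted p = 8.34e-13, edgeR). By raw counts it stood at rank 2, behind Rn45s alone, in all libraries from 75 nM upward, against rank 59 in both 0 nM libraries. Hba-a2 stood at rank 3 in both 200 nM libraries, against 605 and 615.5 at 0 nM.

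Hbb-b1, the smaller beta-chain entry, showed the largest fold change of the 4. It had 14.2 and 13.2 CPM at 0 nM, 18.3 and 16.8 CPM at 12.5 nM, 26.6 and 29.7 CPM at 25 nM, and 92.7 and 118 CPM at 50 nM. It had 207 and 218 CPM at 75 nM, 386 and 409 CPM at 100 nM, 773 and 795 CPM at 150 nM, and 1236 and 1297 CPM at 200 nM. The 50 nM replicates again lay far apart, here with replicate 2 the higher, the opposite of Beta-s. The mean was 1266 ± 43 CPM at 200 nM, against 13.7 ± 0.7 CPM at 0 nM (SD, n = 2 each), a 92.1-fold difference and a log2 fold change of 6.53 ± 0.12 (standard error; adjusted p = 5.67e-12, edgeR). Leaving out each of the 16 libraries in turn gave 6.46 to 6.56.

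Hbq1b, the theta globin, was the least abundant member. It had 2.02 and 2.08 CPM at 0 nM, from 33 counts in each library, 3.04 and 2.22 CPM at 12.5 nM, 4.19 and 3.91 CPM at 25 nM, and 11.99 and 13.7 CPM at 50 nM. It had 31.3 and 25.7 CPM at 75 nM, 41.0 and 41.6 CPM at 100 nM, 68.8 and 66.8 CPM at 150 nM, and 102 and 89.7 CPM at 200 nM. Relative to the level its replicates differed most at 12.5 nM, where counts were 49 and 38. It averaged 95.7 ± 8.5 CPM at 200 nM, against 2.05 ± 0.04 CPM at 0 nM (SD, n = 2 each), a 46.4-fold difference and a log2 fold change of 5.54 ± 0.13 (standard error; adjusted p = 2.42e-36, edgeR). The neighbouring copy Hbq1a, with the nearly identical promoter printed above, had 11 counts over all 16 libraries and at most 3 in any library, against 1104 and 1059 counts of Hbq1b at 200 nM. Of the Hbq1a transcript 36.8% of windows of 50 bases and 24.4% of windows of 100 bases also occur in Hbq1b, and how reads from these were counted is not known here.

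**Figure D1:**
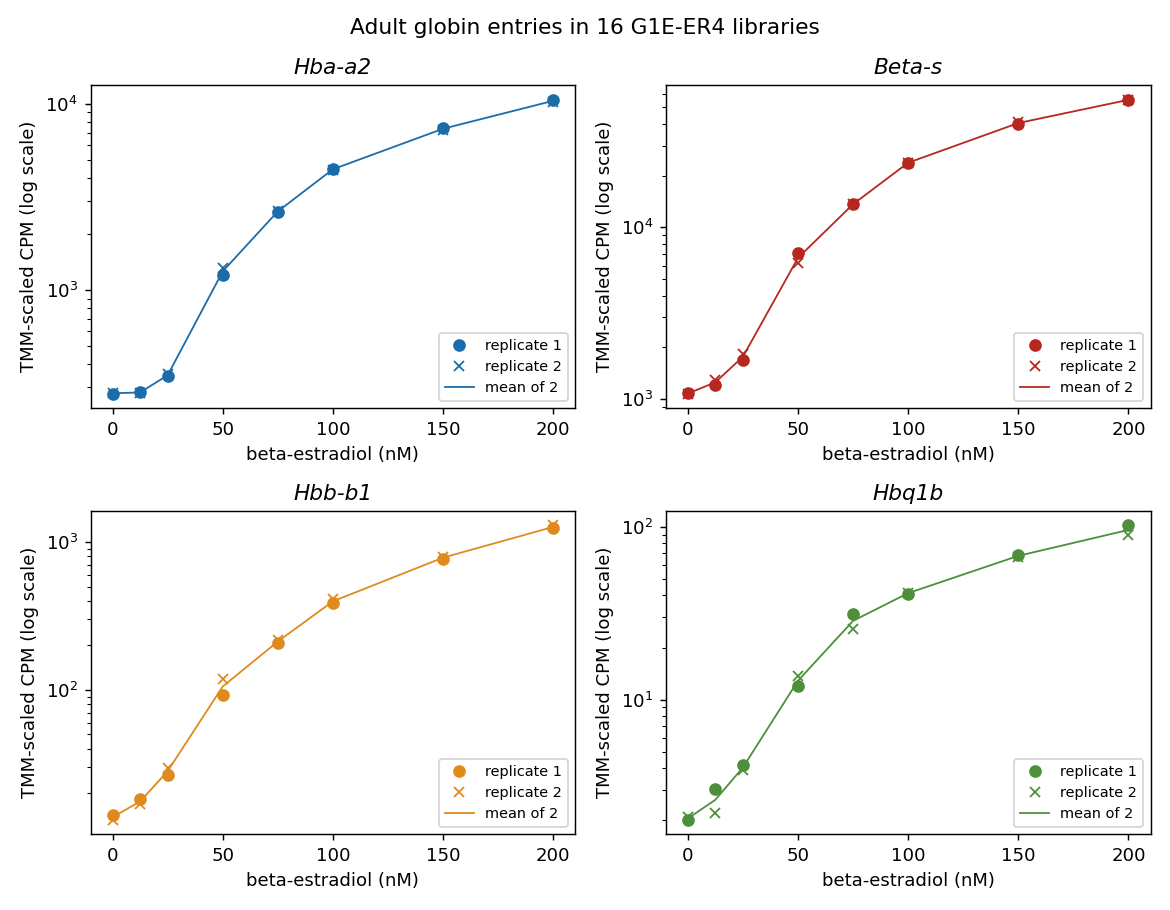
TMM-scaled CPM on a log axis against the dose of beta-estradiol in nM, with 1 panel for each adult globin entry; circles and crosses are the 2 libraries of each dose and the line joins their means. All 4 entries lie above their 0 nM level at 25 nM, with Beta-s at 1765 against 1078 CPM on average, and climb at each later dose. Replicates lie apart most visibly at 50 nM for Beta-s and Hbb-b1.

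Compared per length, Beta-s stood above Hba-a2 at every dose. With transcripts of 628 and 554 bases, Beta-s had 88177 ± 322 CPM per kilobase and Hba-a2 18760 ± 386 CPM per kilobase at 200 nM (SD, n = 2), and at 0 nM Beta-s had 1716 ± 9 and Hba-a2 504 ± 5 CPM per kilobase. Hbq1b, with 562 bases, had 170 ± 15 CPM per kilobase at 200 nM and 3.65 ± 0.07 at 0 nM. Whether the Hba-a2 entry holds reads of Hba-a1 is not known here, so its level may not be that of a single gene or of the whole alpha output.

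Against 0 nM all 4 entries were called higher at each dose from 25 to 200 nM, and none at 12.5 nM, in a test across 10080 genes (edgeR quasi-likelihood, Benjamini-Hochberg adjusted p below 0.05). Of all genes tested, 0.278% were called higher at 12.5 nM, 3.0% at 25 nM, 18.8% at 50 nM, 29.0% at 75 nM, 34.1% at 100 nM, 37.7% at 150 nM and 40.5% at 200 nM. At 12.5 nM edgeR had 1 entry with an unadjusted p below 0.05, Beta-s, and DESeq2 called 0. The log2 fold changes at 12.5 nM were 0.01 ± 0.03 for Hba-a2, 0.22 ± 0.06 for Beta-s, 0.35 ± 0.19 for Hbb-b1 and 0.35 ± 0.24 for Hbq1b. Without 50 nM replicate 1 the standard error of Beta-s was 0.03 and that of Hbb-b1 0.09 on the same contrast. Beta-s then had an adjusted p of 0.00222 and Hbb-b1 of 0.0481 (edgeR), so 2 of 4 were called at 12.5 nM. Without 50 nM replicate 2 the adjusted p was 0.00190 for Beta-s and 0.0481 for Hbb-b1 (edgeR).

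At 25 nM the entries moved by unequal amounts. The log2 fold change against 0 nM was 0.32 ± 0.03 for Hba-a2 (edgeR quasi-likelihood adjusted p = 1.03e-10), 0.71 ± 0.06 for Beta-s (0.000204), 1.03 ± 0.17 for Hbb-b1 (0.00991) and 0.98 ± 0.22 for Hbq1b (0.00392). Some calls of the scarcer entries were lost when a library was left out. Without 0 nM replicate 1, Hbb-b1 and Hbq1b each had an adjusted p of 0.0525 (edgeR quasi-likelihood), which left 2 of 4 called. Hbb-b1 was also lost without 0 nM replicate 2 (0.0841) or 25 nM replicate 2 (0.0791), and Hbq1b without 25 nM replicate 1 (0.0505). In the order of fold changes over all genes tested, Hbb-b1 stood 89th, Hbq1b 104th, Beta-s 179th and Hba-a2 557th at 25 nM.

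At 50 nM the log2 fold changes against 0 nM were 2.17 ± 0.03 for Hba-a2, 2.63 ± 0.06 for Beta-s, 2.94 ± 0.14 for Hbb-b1 and 2.64 ± 0.17 for Hbq1b. All 4 lay above the 99th percentile of the genes tested, which was 2.08, and they stayed above it up to 200 nM, where it was 5.10. At 100 nM the values were 3.996 ± 0.032 for Hba-a2, 4.47 ± 0.07 for Beta-s, 4.85 ± 0.12 for Hbb-b1 and 4.32 ± 0.15 for Hbq1b. Hbb-b1 had the highest and Hba-a2 the lowest fold change of the 4 at both doses and again at 200 nM, while Beta-s and Hbq1b were close to each other beside their standard errors. Over all doses together each entry passed the test, with adjusted p from 2.34e-66 for Hba-a2 to 7.18e-12 for Hbb-b1 (edgeR quasi-likelihood F test), as did 86.3% of all genes.

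**Figure D2:**
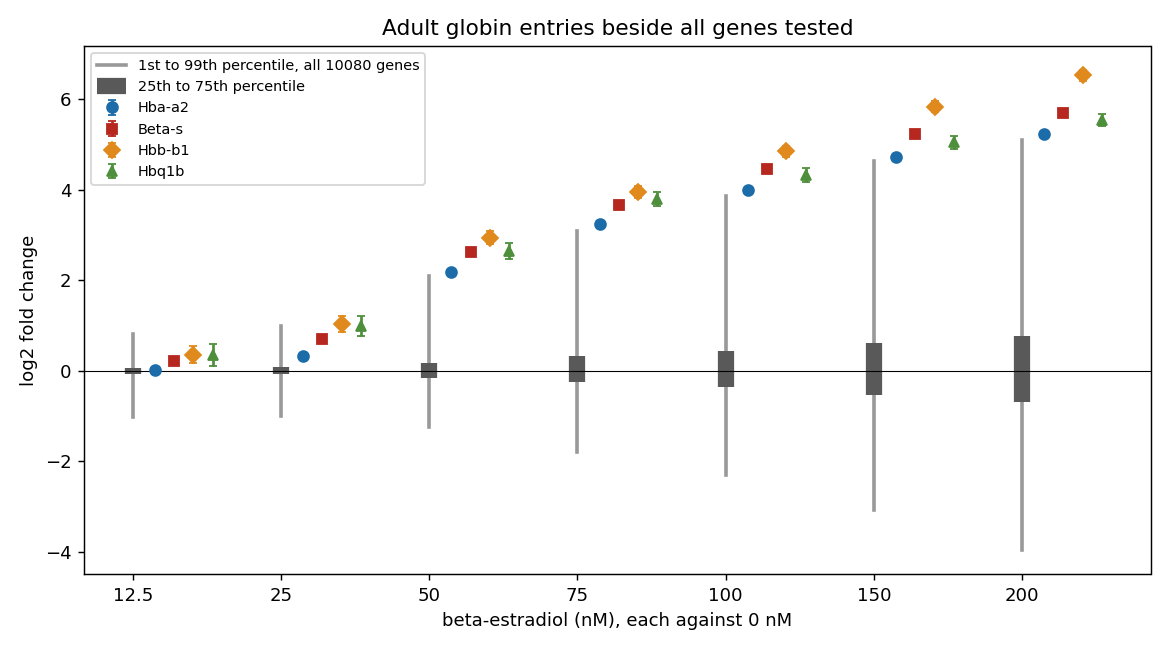
Log2 fold change of each dose against 0 nM, with the dose in nM on the horizontal axis; coloured points are the adult globin entries with their standard errors, and the grey bars span the 1st to 99th and the 25th to 75th percentile of all 10080 genes tested. The entries lie inside the thin bar at 12.5 nM and above its upper end, 2.08 at 50 nM and 5.10 at 200 nM, from 50 nM upward.

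Steps between neighbouring doses showed where in the range the transcripts moved. From 12.5 to 25 nM, 2 of 4 entries were called higher, Hba-a2 at 0.31 ± 0.03 (adjusted p = 1.26e-09, edgeR quasi-likelihood) and Beta-s at 0.49 ± 0.06 (0.00554), where 0.893% of all genes were called higher. Hbb-b1 was at 0.68 ± 0.16 (0.133) and Hbq1b at 0.63 ± 0.21 (0.181) on this step. DESeq2 called 3 of 4, Hbb-b1 among them, and the call of Beta-s was lost without 12.5 nM replicate 1 (adjusted p = 0.106, edgeR quasi-likelihood) or 25 nM replicate 2 (0.0541). Hbb-b1 was called without either 50 nM library (1.96e-08 and 1.77e-08), which gave 3 of 4.

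All 4 entries were called higher at every later step. Of all genes 14.1% were called higher from 25 to 50 nM, 16.6% from 50 to 75 nM, 14.7% from 75 to 100 nM, 20.6% from 100 to 150 nM and 19.4% from 150 to 200 nM. The step from 25 to 50 nM was the largest in fold, at 1.85 ± 0.03 for Hba-a2, 1.91 ± 0.06 for Beta-s, 1.91 ± 0.12 for Hbb-b1 and 1.66 ± 0.15 for Hbq1b on the log2 scale. The last step, from 150 to 200 nM, was still upward, at 0.50 ± 0.03 for Hba-a2 (adjusted p = 5.13e-20, edgeR quasi-likelihood), 0.45 ± 0.06 for Beta-s (0.000274), 0.69 ± 0.08 for Hbb-b1 (7.05e-05) and 0.49 ± 0.08 for Hbq1b (2.76e-06). No entry had levelled off at the highest dose given.

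The doses also hold a ladder in which each dose is 2 times the one before. A transcript in proportion to the dose would change by 1 on the log2 scale at each rung. The level at 0 nM was not subtracted, and it was a large part of the level on the first rung. Hba-a2 averaged 279 CPM at 0 nM, beside 282 CPM at 12.5 nM and 349 CPM at 25 nM. For Hbb-b1 the averages at these doses were 13.7, 17.5 and 28.1 CPM. The first rung therefore does not show how the gain over 0 nM grew with the dose. Hba-a2 changed by 0.31 ± 0.03 from 12.5 to 25 nM, by 1.85 ± 0.03 from 25 to 50 nM, by 1.82 ± 0.03 from 50 to 100 nM and by 1.22 ± 0.03 from 100 to 200 nM. Beta-s changed by 0.49 ± 0.06, 1.91 ± 0.06, 1.84 ± 0.06 and 1.22 ± 0.06 over the same rungs. Hbq1b changed by 0.63 ± 0.21, 1.66 ± 0.15, 1.68 ± 0.10 and 1.21 ± 0.08. Hbb-b1 followed them up to 100 nM, with 0.68 ± 0.16, 1.91 ± 0.12 and 1.91 ± 0.09, and changed by 1.67 ± 0.08 over the last rung. Over the doublings from 50 to 100 nM and from 100 to 200 nM all 4 entries were called higher, beside 27.3% and 32.5% of all genes. Between 25 and 100 nM the levels of all 4 rose by more than the dose did, by 3.61-fold and 3.53-fold for Hba-a2 over these 2 rungs. For Hba-a2 the level at 0 nM was also most of the level at 25 nM, so these ratios do not compare gains over 0 nM. Of its whole gain over 0 nM Hba-a2 had made 0.689% by 25 nM, 9.71% by 50 nM and 41.3% by 100 nM.

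**Figure D3:**
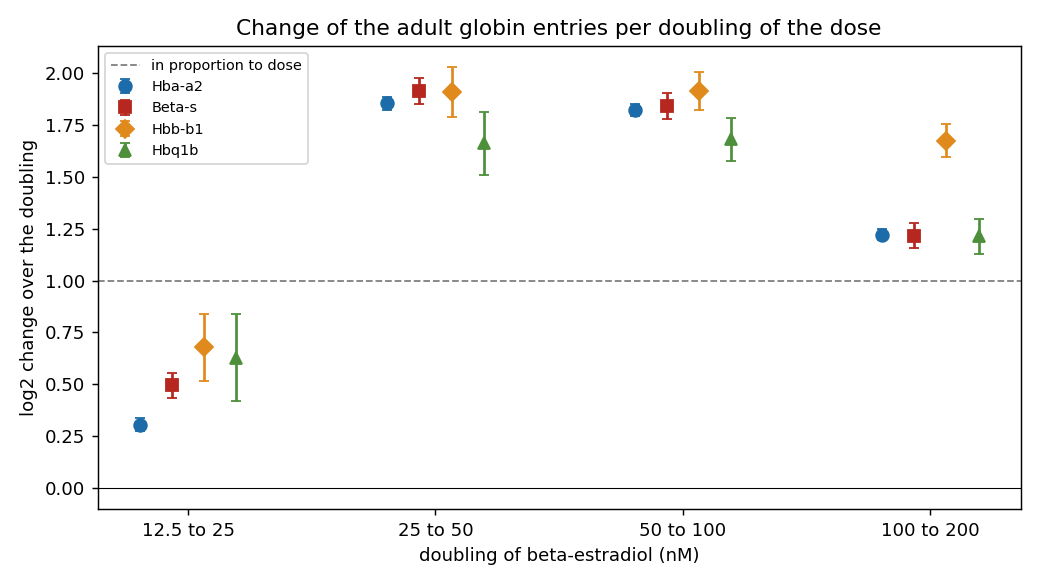
Log2 change over each doubling of the dose of beta-estradiol, from 12.5 to 25 nM up to 100 to 200 nM, for the 4 adult globin entries with standard errors; the dashed line at 1 marks a change in proportion to the dose. The entries lie below the line on the first rung, near 1.7 to 1.9 on the middle rungs, and between 1.21 and 1.67 on the last, where Hbb-b1 stands above the others.

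The dose at which a member had gone halfway depended on the scale. On the log2 scale 50% of the change from 0 to 200 nM was reached at 60.2 nM for Hba-a2, 55.3 nM for Beta-s, 58.3 nM for Hbb-b1 and 53.5 nM for Hbq1b. Taking 1 of the 2 libraries at each dose in all 256 ways gave 58.8 to 61.4 nM for Hba-a2, 53.1 to 57.1 nM for Beta-s, 53.5 to 62.0 nM for Hbb-b1 and 50.2 to 57.1 nM for Hbq1b. The range of Hba-a2 lay above those of Beta-s and Hbq1b, and that of Hbb-b1 overlapped all the others. On the linear CPM scale the halfway dose was 115 nM for Hba-a2 (113 to 117 nM), 113 nM for Beta-s (112 to 114 nM), 114 nM for Hbq1b (108 to 121 nM) and 131 nM for Hbb-b1 (128 to 135 nM). Hbb-b1 was the entry whose range lay apart from the other 3 on that scale.

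In CPM the gain per nM of hormone of Beta-s was highest between 75 and 100 nM, and that of Hbb-b1 at the last step. Beta-s gained 41.0 CPM per nM from 12.5 to 25 nM, 195 from 25 to 50 nM, 280.3 from 50 to 75 nM and 406 from 75 to 100 nM, then 335 from 100 to 150 nM and 296 from 150 to 200 nM. Over the 4 pairings of libraries the gain from 75 to 100 nM was 404 to 409 CPM per nM and that from 150 to 200 nM 280.0 to 313, so the first lay above the second. Hba-a2 gained 36.5 CPM per nM from 25 to 50 nM, 72.4 from 75 to 100 nM and 60.7 from 150 to 200 nM. Hbb-b1 gained 3.09, 7.40 and 9.64 CPM per nM over these same steps, ending on its highest. The last step held 38.5% of the whole gain of Hbb-b1, against 27.3% for Beta-s, 30.0% for Hba-a2 and 29.8% for Hbq1b.

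**Figure D4:**
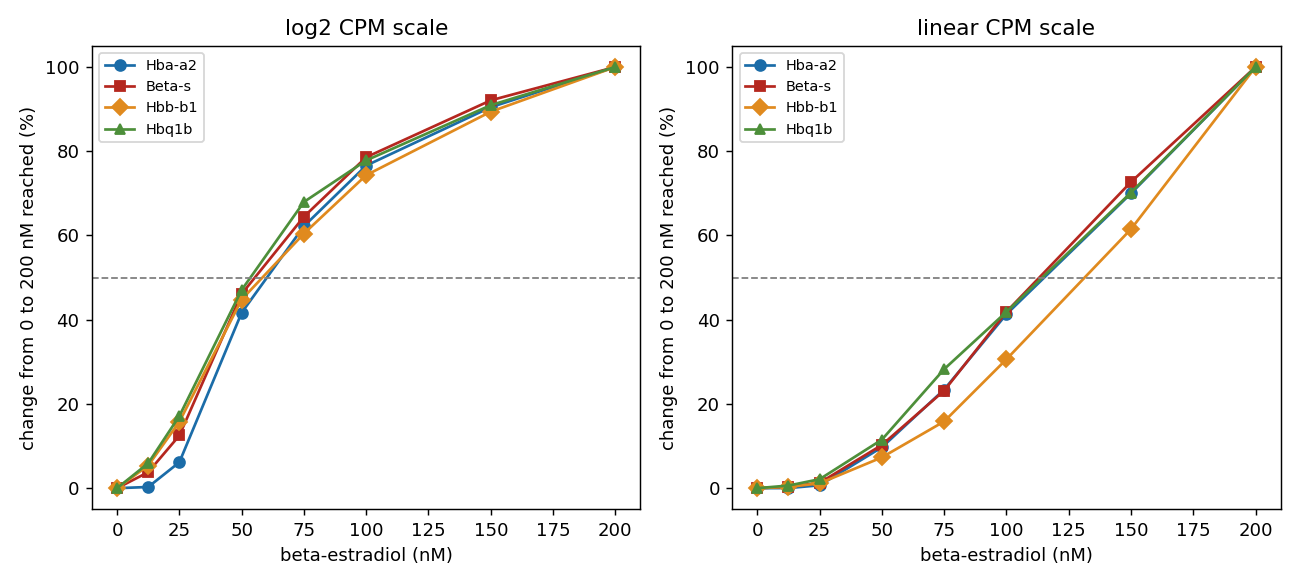
Share of the change from 0 to 200 nM reached at each dose, in percent, for the 4 adult globin entries, from mean log2 CPM on the left and mean CPM on the right, against the dose of beta-estradiol in nM; the dashed line marks 50%. At 50 nM the entries had reached 41.7% to 47.1% on the log2 scale but 7.32% to 11.5% on the linear scale, and from 50 to 150 nM Hbb-b1 runs below the others on the linear scale.

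The balance between the entries shifted at the lowest doses. The beta-type share of the alpha- and beta-type counts, with Beta-s and Hbb-b1 summed so that a split between beta copies does not enter, was 79.6% ± 0.2 at 0 nM, 81.8% ± 0.6 at 12.5 nM and 83.7% ± 0.5 at 25 nM (SD, n = 2). It then stayed between 84.0% ± 0.2 at 75 nM and 84.9% ± 0.5 at 150 nM, and was 84.5% ± 0.2 at 200 nM. At 50 nM the libraries stood at 85.6% and 82.8%, the widest spread of any dose. Every library with hormone had a higher share than the 0 nM libraries at 79.8% and 79.5%. With 2 libraries a dose an exact permutation test cannot go below p = 0.33, so these shares are given without a test. Hba-a1 has no row of its own, so the alpha-type counts are those of the Hba-a2 entry alone.

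Within the beta-type counts Hbb-b1 made up 1.30% and 1.22% in the untreated libraries and 1.54% and 1.60% in those with 25 nM. With 100 nM it made up 1.59% and 1.69%, with 150 nM 1.90% and 1.89%, and with 200 nM 2.18% and 2.29%, its highest share. At 50 nM it was 1.29% in replicate 1 and 1.87% in replicate 2. That spread took in the libraries of 25, 75 and 100 nM and also untreated replicate 1, at 1.30%. Hbq1b had 0.729 and 0.740 counts per 100 Hba-a2 counts in the untreated libraries, and 1.21 and 1.11 in those with 25 nM. With 100 nM the ratio was 0.914 and 0.938, and with 200 nM 0.965 and 0.876. This ratio was above that of 0 nM in every library with hormone, and from 100 nM upward it lay between 0.876 and 0.965. In 12.5 nM replicate 2 it was 0.788, from 38 Hbq1b counts against 33 in each untreated library. A difference of that size may be counting noise.

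**Figure D5:**
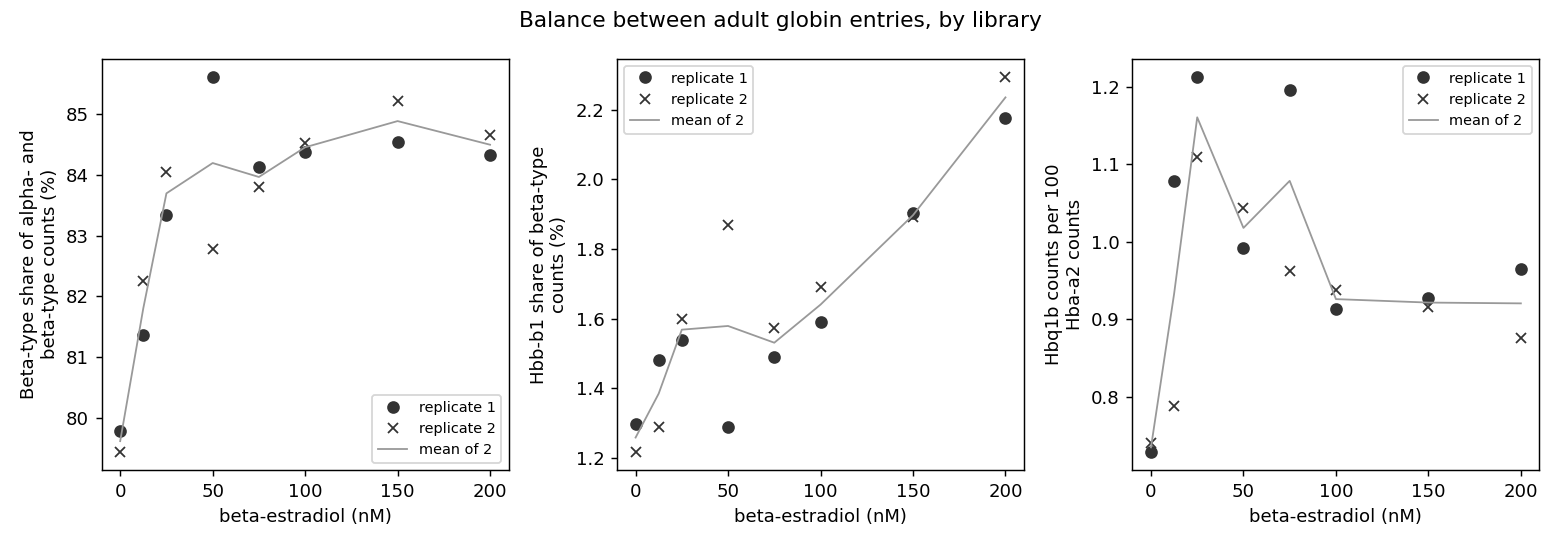
Beta-type share of the alpha- and beta-type counts in percent, Hbb-b1 share of the beta-type counts in percent, and Hbq1b counts per 100 Hba-a2 counts, each by library against the dose of beta-estradiol in nM; circles and crosses are replicates 1 and 2 and the line joins their means. The axes do not start at 0. The first share is 79.6% at 0 nM, 81.8% at 12.5 nM and 83.7% at 25 nM and then stays near 84%, while the second is highest, at 2.18% and 2.29%, at 200 nM.

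Together the 4 entries took 5.67% ± 0.04 of all counts at 200 nM, against 0.151% ± 0.0002 at 0 nM (SD, n = 2). The share was 0.228% ± 0.008 at 25 nM, 0.840% ± 0.052 at 50 nM and 2.77% ± 0.0007 at 100 nM. The embryonic globins Hba-x, Hbb-bh1 and Hbb-y made up 3.14% ± 0.01 of adult and embryonic globin counts together at 200 nM, against 0.0451% ± 0.0118 at 0 nM, and 3.15% in the highest library. Hbb-bh1, the most abundant of the embryonic entries, had 1932 ± 20 CPM at 200 nM, above Hbb-b1 and below Hba-a2.

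Many genes of haem supply and haemoglobin assembly rose as well. Of 18 genes listed 16 were tested, and 13 were higher and 2 lower at 200 nM than at 0 nM, with a median log2 fold change of 2.37 beside 0.02 over all genes tested, of which 40.5% were higher and 39.5% lower. Alas2, the erythroid enzyme of the first step of haem synthesis, had 4321 ± 49 CPM at 200 nM against 32.9 ± 0.06 CPM at 0 nM. The mitochondrial transporter genes Abcb10 and Slc25a39 had 2166 ± 53 and 2481 ± 48 CPM at 200 nM, against 126 ± 0.5 and 245 ± 6 CPM at 0 nM. Prdx2, which removes peroxide in red cells, had 5032 ± 49 CPM at 200 nM against 834 ± 11 CPM at 0 nM. Each of these had an adjusted p of at most 9.10e-51 (edgeR). Hspa9, a mitochondrial chaperone gene, fell to 437 ± 5 CPM at 200 nM, against 1309 ± 23 CPM at 0 nM. At 25 nM 8 of the 16 were already higher and none lower, beside 3.0% of all genes higher and 1.02% lower.

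A list drawn up as activators and looping factors of globin genes had 19 members higher and 2 lower of 23 tested at 200 nM. Its median log2 fold change was 1.23, beside 40.5% higher and 39.5% lower among all genes. Not every member is an activator, Gfi1b among those that are not, so 19 is not a count of activators. Nfe2, a subunit of the factor that binds the locus control region, had 789 ± 9 CPM at 200 nM against 160 ± 2 CPM at 0 nM, Gfi1b 596 ± 19 against 187 ± 2 CPM, and Foxo3 298 ± 7 against 47.7 ± 5.5 CPM. Klf1, which binds CACCC boxes, was at 658 ± 20 CPM at 200 nM against 221 ± 9 CPM at 0 nM. Repressors of globin genes went both ways, with 6 higher and 10 lower of 19 (median -0.17), read beside the same shares of all genes. Myb had 8.53 ± 0.19 CPM at 200 nM against 41.6 ± 1.7 CPM at 0 nM, Ehmt1, a histone methyltransferase gene, 34.8 ± 3.5 against 88.6 ± 2.5 CPM, and Bach1, a haem-binding repressor, 36.8 ± 0.07 against 4.104 ± 0.08 CPM. Mafk, which pairs with both activators and repressors and stood in both lists, rose to 254 ± 4 CPM at 200 nM, against 56.8 ± 4.0 CPM at 0 nM. Zbtb7a also stood in both lists, with 55.3 ± 3.7 CPM at 200 nM against 22.85 ± 3.2 CPM at 0 nM. Mafk and Zbtb7a are therefore counted among the higher members of each list.

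Genes beside the alpha cluster also rose, whereas the olfactory receptor genes beside the beta cluster gave almost no counts. All 7 tested neighbours on chromosome 11 were higher at 200 nM, beside 40.5% of all genes tested. Their median log2 fold change was 1.73, beside 0.02 over all genes, and 3 of the 10 listed had too few counts. Stk10 and Fbxw11 start 237 and 346 kb from Hba-a2, and Rhbdf1 had only 1.86 CPM at 200 nM. Stk10 changed least of the 7, with a log2 fold change of 0.34 ± 0.13 (standard error). Its call may depend on the scaling, since the median of all genes was -0.36 with library size alone. Il9r, an interleukin receptor gene at 32187541 to 32200279, had 89.5 ± 1.2 CPM at 200 nM against 3.49 ± 0.33 CPM at 0 nM. Snrnp25 (32205415 to 32208984) had 212 ± 9 against 57.1 ± 0.5 CPM, and Nprl3 (32225628 to 32267707), whose introns hold the main alpha-globin enhancers, had 170.5 ± 2.5 against 59.9 ± 3.4 CPM. Mpg, a DNA repair gene that lies within the span of Nprl3 on the other strand, had 126 ± 6 against 38.0 ± 1.8 CPM, and reads of overlapping genes cannot be told apart without strand. On chromosome 7 the olfactory receptor genes Olfr64 and Olfr66, on the side of the embryonic genes, had 0 counts in all 16 libraries, as had Olfr67, Olfr68 and Olfr69 on the other side. Olfr65 had 2 counts in all. Of the 4 listed genes farther off on chromosome 7, Stim1, Rrm1, Trim68 and Trim21, the first 3 were higher at 200 nM. The median over the 4 was 0.32, and the count is read beside the same 40.5% of all genes. When libraries were scaled by size alone, 1 of the 4 was higher and 1 lower.

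Genes whose pattern over the 16 libraries was among the most like that of each entry were named by Pearson correlation of log2 CPM among 6525 genes, given as a description since all rest on the same libraries. Closest to Hba-a2 were Trim10 (r = 0.999), Gypc, Fam132b and Klf13 (0.999), of which Fam132b encodes the iron regulator erythroferrone. Closest to Beta-s were Tmem14c, Alas2, Dhrs11 and Klf13. Closest to Hbb-b1 were Ehd1, Smim1, Abcg2, Dhrs11 and Beta-s itself (0.998), and closest to Hbq1b were Cdc25b (0.998), Dhrs11, Ache, Abcb10 and Pim1 (0.997). Such likeness was common, with 145 genes above 0.99 for Hba-a2 and 91 for Hbq1b, and the genes named differed in size of change, from a log2 change of 1.46 for Abcg2 to 7.03 for Alas2. Among the 4 entries r ran from 0.995 between Hba-a2 and Hbq1b to 0.998 between Hba-a2 and Beta-s.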

How the data were processed

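The deposited values are raw read counts by gene symbol in 16 libraries; the authors made them with bcl2fastq, STAR and the mm10 build, per the submitters' processing notes. No source used here gives the versions, the counting program, the annotation, the read length or the treatment of reads that match several places. Libraries were made by Smart-seq2, per the labels' protocols, a method that keeps no strand and adds no molecular identifiers. Standard errors and p-values come from the spread between libraries.

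Counts were tested in edgeR 4.0.16 (R 4.3.3) on 10080 genes kept by filterByExpr, with TMM scaling and a robust quasi-likelihood fit of dose over all 16 libraries, which share 1 estimate of spread. Benjamini-Hochberg adjustment covered all genes of a contrast, with a threshold of 0.05. A standard error is the log2 fold change over the root of its F value. Log2 CPM used a prior count of 2. Alternatives were DESeq2 1.42.0, library size alone, no filter on low counts, a replicate block, Rn45s taken out before scaling, Beta-s and Hbb-b1 summed, other scales for the shares and halfway doses, and each library left out. In each list up to 4 tested members with the smallest adjusted p at 200 nM are named. Klf1, Gata1, Hspa9 and Zbtb7a were named outside that rule after their values were seen. The contrasts of 100 with 50 nM and of 200 with 100 nM were also added after values were seen. The genes most alike are the 5 highest correlations for each entry among named genes that reach 20 CPM at some dose. A gene chosen by this rule is not reported here. The members and lists were chosen with earlier results of these data known. The Hbb-b1 entry has no place or length here.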

Additional observations from a re-analysis of the deposited data

How the results depend on the processing

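Of 1305 member fold changes recomputed over all contrasts and alternatives, 1288 kept their direction and side of the threshold, 9 gained a call, 7 lost one and 1 reversed: Hba-a2 at 12.5 nM, no call in either fit, was at -0.000676 with library size alone. From 50 nM upward all 4 entries stayed called higher than at 0 nM under every alternative that kept them apart. With Beta-s and Hbb-b1 summed as near-identical copies, the 3 entries left were called higher at each of these doses, and the summed beta entry had a log2 fold change of 5.70 at 200 nM against 5.68 for Beta-s alone. Leaving out each library in turn gave 0 to 2 entries called at 12.5 nM, 2 to 4 at 25 nM and 1 to 3 from 12.5 to 25 nM. The library left alone at a dose is then assumed to vary like those of the other doses. Scaling matters for the size of changes: at 200 nM the median log2 fold change of all genes was -0.36 with library size alone (2819 called higher, 5396 lower), 0.02 with TMM (4086 higher, 3977 lower) and 0.01 with DESeq2 (3825 higher, 3791 lower). The halfway dose moved to 115, 113, 131 and 114 nM for Hba-a2, Beta-s, Hbb-b1 and Hbq1b on the linear scale, and to 57.7 nM for Hba-a2 and 52.5 nM for Beta-s with library size alone. Without Rn45s in the total the 4 entries took 6.66% of counts at 200 nM and 0.167% at 0 nM. Per kilobase, with the Hbb-bs length used for Hbb-b1 too, the beta-type share was 82.8% at 200 nM and 77.5% at 0 nM. By root mean square distance in place of correlation 0 to 2 of the 5 genes most like each entry were shared.

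Replicate numbers did not pair the libraries: deviations of same-numbered libraries correlated at -0.06 to 0.10 over 28 pairs of doses, none above 0.1. With a replicate block Hbb-b1 was called from 12.5 to 25 nM (log2 change 0.68, adjusted p = 0.00393, edgeR), which gave 3 of 4 entries on that step, as it was without a filter on low counts (adjusted p = 0.00066, edgeR), and no other member's call changed. All genes called at 12.5 nM numbered 51, and 17 to 29 when a library of 0 or 12.5 nM was left out; at 25 nM they numbered 405, and 189 to 233 without either 0 nM library or 25 nM replicate 2. From 12.5 to 25 nM there were 110, 193 without a filter, and 50 to 65 without 12.5 nM replicate 1 or 25 nM replicate 2. Replicates of a dose differed by more than counting noise (chi-square per degree of freedom 1.66 to 3.82). Hbq1b, with 33 counts per library at 0 nM, is the entry most limited by depth.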

Other observations

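Other members of the globin family stayed near the limit of detection. Myoglobin (Mb) had 2 counts over the 16 libraries, cytoglobin (Cygb) 1 and neuroglobin (Ngb) 11, and none was tested. The minor embryonic beta-type entry Hbb-bh2 had 8 and 7 counts at 200 nM and none at 0 nM, with 27 over the 16 libraries.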
